A study of Mus musculus with 72 samples.

Results

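The LacZ reporter CpG sites are the CpG positions of the bacterial gene lacZ, written LacZ in the labels, as carried by the knockout alleles of 6 mouse lines. All 24 knockout libraries with LacZ in their title were taken, and a site was kept where its position lay between 150 and 2896 of the LacZ reference and it had at least 10 reads in every one of the 24 libraries. This gave 141 sites of the 325 LacZ positions listed in any of these libraries. The series held 72 libraries, and the others covered the native promoter CpG islands of the same genes.

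The mice were C57BL/6N, 7 weeks old and homozygous (-/-) for a tm1a knockout allele, which also holds a neo selection cassette and places LacZ under the promoter of the disrupted gene. The disrupted genes were Arap, whose label accession is that of Arap1, and Dstn, Lyplal1, Ninj1, Rab32 and Rgcc. Arap1 encodes a protein that switches small GTPases off, and Rab32 is itself a small GTPase. Dstn encodes destrin, which takes actin filaments apart, Ninj1 the membrane protein ninjurin, Lyplal1 a lysophospholipase-like enzyme and Rgcc a regulator of the cell cycle. The Arap line was sampled in 5 tissues (brain, heart, kidney, liver and lung) and the Dstn line in 6 (the same tissues and spleen). The Ninj1 line was sampled in 6 tissues (brain, kidney, liver, lung, muscle and spleen), the Rgcc line in 3 (heart, lung and muscle), the Lyplal1 line in 2 (kidney and liver) and the Rab32 line in 2 (liver and spleen). With 1 library for each line and tissue, tissues were used as replicates of their line. The p-values of the main fit measure the spread left after its line and tissue terms, in which spread between animals cannot be told apart. Whether tissues shared animals or pooled several is not stated in the labels. The wild-type mice have no LacZ, so no unmodified counterpart exists for these sites.

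LacZ encodes the bacterial enzyme beta-galactosidase, whose activity is commonly stained to show where a tagged promoter is active. Bacterial coding sequences are rich in CpG dinucleotides, and in mammalian cells these can become methylated, a state often found on silenced transgenes. Bisulfite converts unmethylated cytosine to uracil and leaves methylated cytosine, so the share of reads that keep a cytosine gives the methylation level of a site. No activity or expression of LacZ was measured here.

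Calls per library at the 141 sites ran from 493925 in Lyplal1 kidney to 3892187 in Ninj1 lung, and the lowest coverage of any site in any library was 1305 reads. With the reads of a library pooled, the 95% Wilson interval was at most 0.137 percentage points wide on either side. The reads come from amplification without molecular identifiers and are not independent molecules, so these intervals cover counting error only. Non-CpG cytosines were not listed, so incomplete conversion was not measured. In the 5 Arap libraries the LacZ reference had another name than in the other 19, so the line and the reference name cannot be told apart there. Coverage along the reporter also ran differently in Arap. From position 265 to 282 it went from 13757 to 21285 reads in Arap brain and from 7843 to 15604 in Dstn brain. At position 306 it was 15024 and 7912 reads. Whether this bears on the levels was not tested. Dstn liver and Dstn lung stood apart from the other 4 Dstn libraries, and the site tests and differences of Dstn are also given without them.

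The 141 sites fell into 5 stretches separated by gaps of more than 50 bp. Stretch 1 spanned positions 150 to 722 with 48 sites, stretch 2 spanned 943 to 1232 with 24 and stretch 3 spanned 1823 to 2068 with 22. Stretch 4 spanned 2198 to 2433 with 22 sites and stretch 5 spanned 2629 to 2896 with 25. Levels changed within stretch 1 after position 424, so its start (24 sites up to 424) and its end (24 sites from 462) are described apart. In Dstn heart, for example, the level was 96.0% at position 405 and 69.0% at position 491. Its median coverage was 9270 reads at the start and 9378.5 at the end. Coverage changed in either direction in other libraries, from 7801 to 3864.5 in Dstn brain and from 13844 to 27200 in Arap brain. The positions of the amplification primers, the coding start and the strand of the reference are not given in the sources used here.

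**Figure D1:**
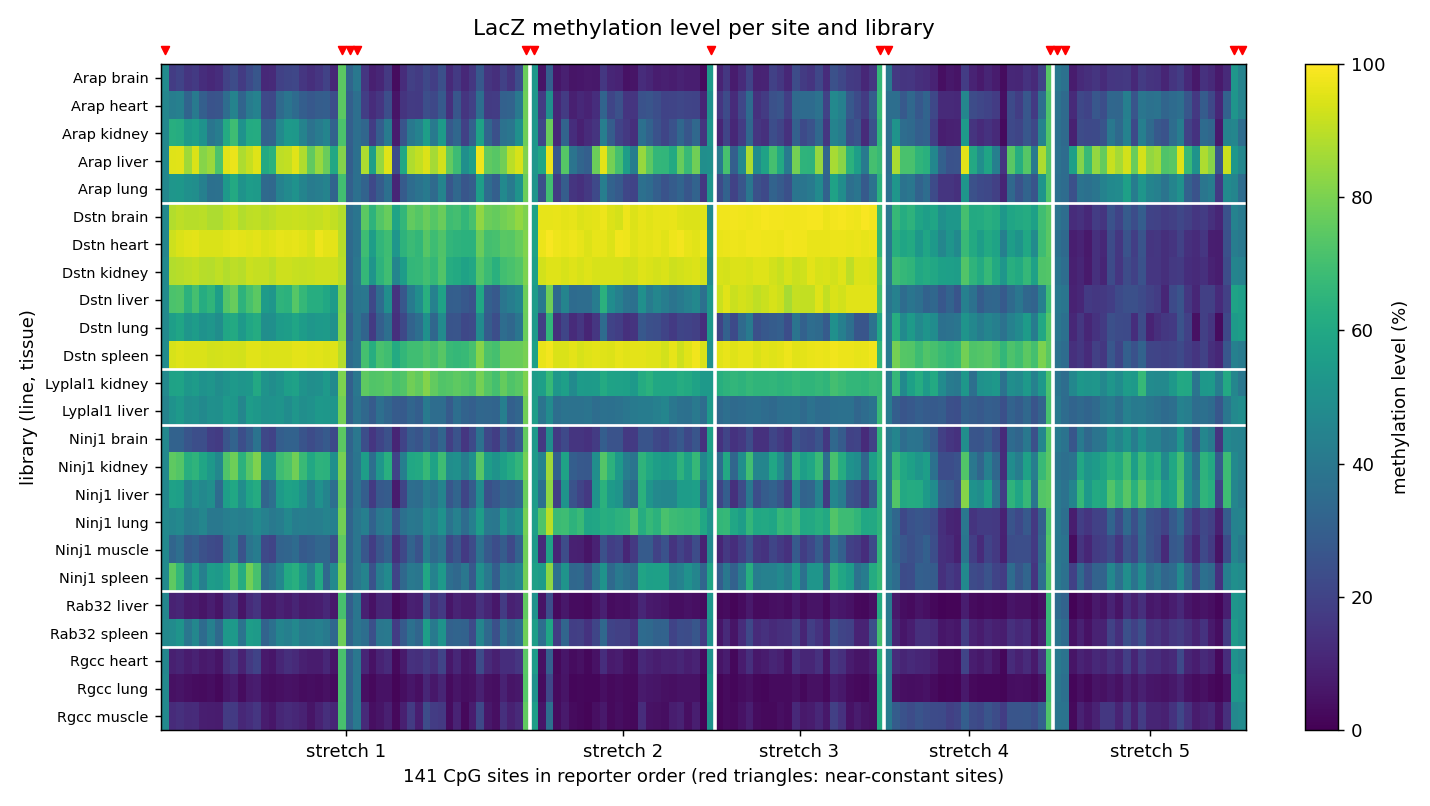
Methylation level in percent (colour) of the 141 LacZ CpG sites in reporter order (horizontal axis, equal spacing) in each of the 24 libraries (vertical axis, by line and tissue), with white lines between stretches and between lines. Dstn brain, heart, kidney and spleen are bright in stretches 1 to 4 and dark in stretch 5, Dstn liver and lung are darker in most of stretches 1 to 4, except liver in stretch 3, and the 14 sites marked by red triangles keep a like colour in all libraries.

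Of the 141 sites, 14 had nearly the same level in all 24 libraries, with an SD below 7 points. They are called near-constant here, and the other 127 variable. This split used the same 24 libraries as the site tests below, so the share of variable sites called there is no separate evidence. The SD of the near-constant sites was 0.870 to 6.12 points and that of the variable sites 10.3 to 35.3, with a median of 27.1. Just above the threshold lay position 2866 with 10.3 points, followed by a site with 13.3.

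The near-constant sites did not sit at one level. Position 462 averaged 31.6% over the line means and position 722 averaged 77.7%, the lowest and the highest of the 14. Position 150, with the smallest SD of all sites, ran from 44.9% in Lyplal1 liver through a median of 46.9% to 48.4% in Arap brain. Position 481 ran from 36.5% to 40.3% with an SD of 1.11 points, and position 2629 ran from 34.9% to 41.2% with an SD of 1.53. Rgcc lung and Dstn spleen, the libraries with the lowest and the highest level over the 141 sites, thus had 47.0% and 48.1% at position 150.

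Of the 10 first and last sites of the stretches, 9 were near-constant, namely 150, 722, 943, 1232, 2068, 2198, 2433, 2629 and 2896. Positions 2640 and 2893 were the second site and the last but one of stretch 5. The other 3, at 424, 462 and 481, lay next to the change within stretch 1. The one end that varied was position 1823, the first site of stretch 3, with an SD of 34.9 points. Position 424 had the highest SD of the 14, at 6.12 points. Its level was 69.7% to 81.5% in the 5 Arap libraries and 80.4% to 89.5% in the 6 Dstn libraries. Their ranges overlapped slightly, through Arap liver.

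**Figure D2:**
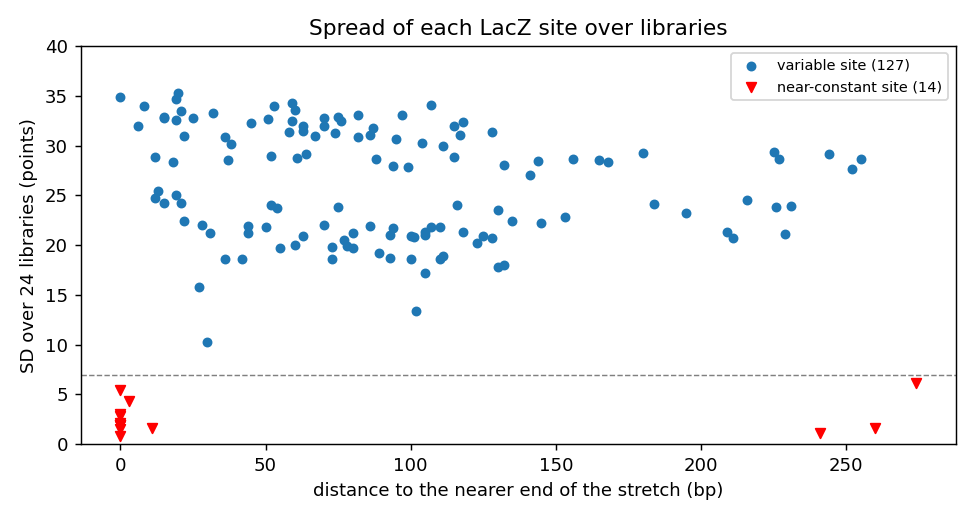
SD of the methylation level over the 24 libraries, in percentage points (vertical axis), against the distance in bp from a site to the nearer end of its stretch (horizontal axis) for the 141 sites. The 14 near-constant sites (triangles) lie under the dashed line at 7 points, 9 of them at a distance of 0, and the 127 variable sites (circles) lie at 10.3 points or more.

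By line means, Dstn was the most methylated of the 6 lines in stretches 1 to 4 and the third lowest in stretch 5. Among libraries of one tissue, Dstn was the highest throughout stretches 1 to 4 in brain, heart and spleen only. In kidney, Lyplal1 was higher at the end of stretch 1 (74.6% against 64.5%). Arap liver exceeded Dstn liver in all of stretches 1 to 4 but stretch 3, with 84.7% against 65.4% at the start of stretch 1. Ninj1 liver also exceeded Dstn liver, in stretch 2 (45.6% against 43.8%) and in stretch 4 (52.0% against 34.6%). Ninj1 lung and Arap lung both exceeded Dstn lung at the end of stretch 1 and in stretches 2 and 3. In stretch 2 they had 66.8% and 28.1% against 21.0%. At the variable sites of stretch 3 the level was 98.1% in Dstn brain, 97.2% in heart, 96.4% in spleen, 93.8% in kidney, 92.8% in liver and 32.1% in lung. At those of stretch 5 it was 19.0% in brain, 15.3% in heart, 20.1% in spleen, 15.1% in kidney, 17.9% in liver and 16.2% in lung. All 6 Dstn libraries were thus low in stretch 5, with a mean of 17.3% ± 2.05 (SD, n = 6), while 5 of 6 were near full methylation in stretch 3.

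The 4 Dstn libraries other than liver and lung were even from site to site at the start of stretch 1 and in stretches 2 and 3, and they stepped between stretches. In Dstn heart the means over variable sites were 95.3% at the start of stretch 1, 68.0% at its end, 96.7% in stretch 2, 97.2% in stretch 3, 56.2% in stretch 4 and 15.3% in stretch 5. The 21 variable sites of stretch 3 ran from 96.2% to 98.4% in that library. Dstn liver had 65.4% at the start of stretch 1, 38.2% at its end and 43.8% in stretch 2, then 92.8% in stretch 3 and 34.6% in stretch 4. Dstn lung had 54.8%, 31.4%, 21.0%, 32.1% and 47.1% in the same order. Stretch 3 of Dstn liver was therefore close to that of 4 other Dstn tissues while its neighbouring stretches were not. It was also the most thinly read stretch of Dstn liver, with a median coverage of 1786 reads against 5084.5 in stretch 2 and 7818 in stretch 4. The step down inside stretch 1 was present in all 6 Dstn libraries, at 16.5 to 27.3 points, and stretch 4 exceeded stretch 5 in all 6, by 16.7 to 52.1 points.

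The other 18 libraries shared no order of stretches 3 and 5. Their stretch 3 minus stretch 5 ran from -31.0 points in Ninj1 liver through a median of -2.17 to 40.6 in Ninj1 lung, against 15.8 to 81.9 in Dstn, so Dstn lung overlapped with them and the other 5 Dstn libraries did not.

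**Figure D3:**
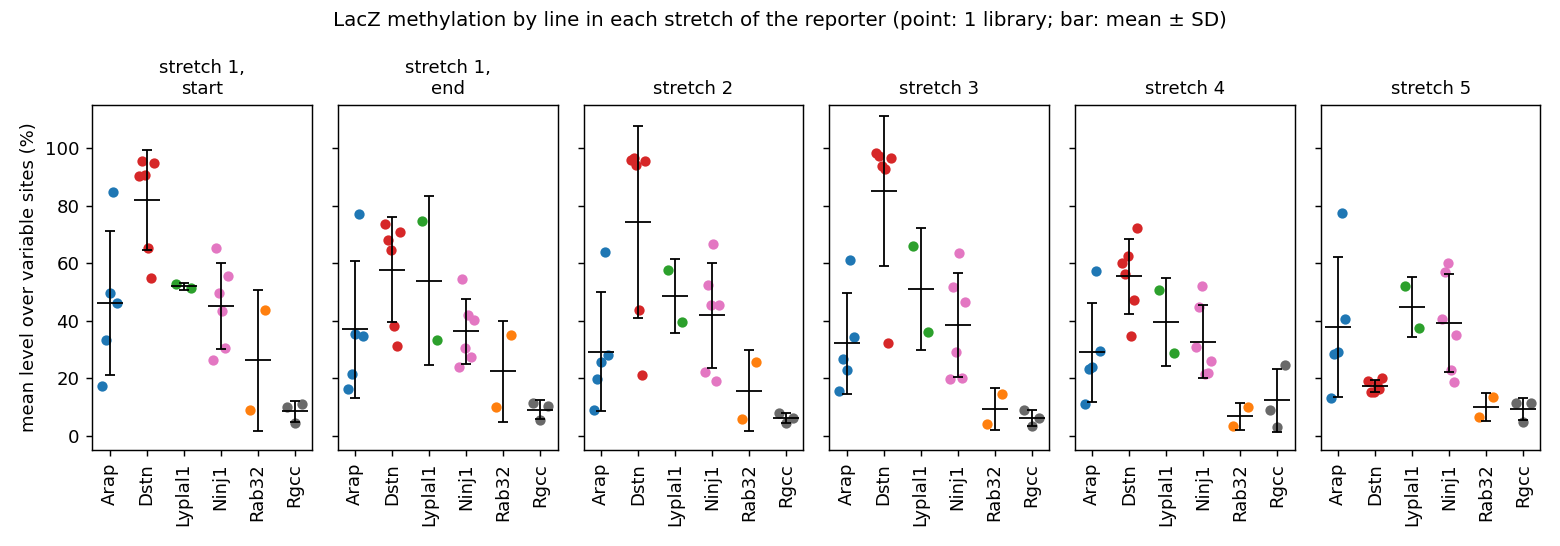
Mean level over the variable sites in percent (vertical axis) for each of the 6 lines (horizontal axis) in 6 panels, the start and the end of stretch 1 and stretches 2 to 5. Each point is 1 library, and the black mark and bar give the mean and SD over the libraries of a line. Dstn has the highest mean in the first 5 panels, at 81.8%, 57.7%, 74.4%, 85.1% and 55.4%, and a mean of 17.3% in stretch 5.

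The counts of methylated and unmethylated calls were fitted per site over all 24 libraries with terms for line and tissue, using edgeR's quasi-likelihood test with Benjamini-Hochberg adjustment over the 141 sites. All sites tested are LacZ sites, so the share called is at once the background. Variable sites of one stretch moved together over the 24 libraries. Pearson's r between them had a median of 0.920 in stretch 1, the lowest, and of 0.985 in stretch 3, the highest. Counts of sites, here and below, are therefore not counts of independent results. Dstn was compared with the mean of the other 5 lines. It was higher at 107 of 141 sites (75.9%) at an adjusted p under 0.05 and lower at 0. The 107 were all 106 variable sites of stretches 1 to 4 and the near-constant position 424. Variable sites were picked by their spread over these same libraries, so this share of them is no separate evidence. None of the 21 variable sites of stretch 5 passed, with a smallest adjusted p of 0.256. Dstn lay below the mean of the other lines at all 21, by a median of -11.2 points. No lower site had an unadjusted p under 0.05, and limma on log2 odds gave the same 107 sites and none lower. Whether the difference of Dstn itself changed between stretches was not tested.

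The median difference at variable sites was 46.6 points at the start of stretch 1, 25.7 at its end, 45.8 in stretch 2, 57.8 in stretch 3 and 31.2 in stretch 4. The largest difference was at position 1843 in stretch 3, which also had the largest SD of all sites. There the level was 98.3% in Dstn brain, 97.3% in heart, 95.0% in spleen, 94.6% in kidney, 92.1% in liver and 22.4% in lung. In the other 18 libraries it ran from 1.45% in Rab32 liver to 65.9% in Lyplal1 kidney, so the 5 Dstn libraries other than lung lay above all of them. The Dstn mean was 83.3% ± 29.9 (SD, n = 6), which was 63.4 points above the mean of the other line means, with an adjusted p of 0.000392 in edgeR's quasi-likelihood test. At position 424 Dstn averaged 86.2% ± 4.26 (SD, n = 6), 10.8 points above the mean of the other lines. The adjusted p there was 0.00174 in the same edgeR test.

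Without Dstn liver and Dstn lung, edgeR called Dstn higher at 106 sites and lower at 2, positions 1232 and 2893, by -3.70 and -5.34 points. These libraries were left out after their low levels were seen. The larger differences in stretches 1 to 4 and the smaller p-values below are therefore no separate evidence. Both are near-constant. The 106 were 105 of the 106 variable sites of stretches 1 to 4 and position 424, and 0 of 21 in stretch 5 passed. The median differences then were 57.8 points at the start of stretch 1, 37.1 at its end, 67.2 in stretch 2, 69.3 in stretch 3, 38.3 in stretch 4 and -10.8 in stretch 5. At position 1843 the mean of the other 4 Dstn libraries was 96.3% ± 1.80 (SD, n = 4). That was 76.4 points above the mean of the other lines, with an adjusted p of 2.55e-05 in edgeR. At position 424 these 4 libraries averaged 88.9% ± 0.441 (SD, n = 4). That was 13.5 points above the mean of the other lines, with an adjusted p of 0.000277 in edgeR. All line terms together were then called at 112 sites. In the comparison of Dstn with the other lines by the main fit, leaving out any single library left 88 to 108 sites called. Of the 107, 88 or more were among them each time. The lowest count came without Dstn heart.

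**Figure D4:**
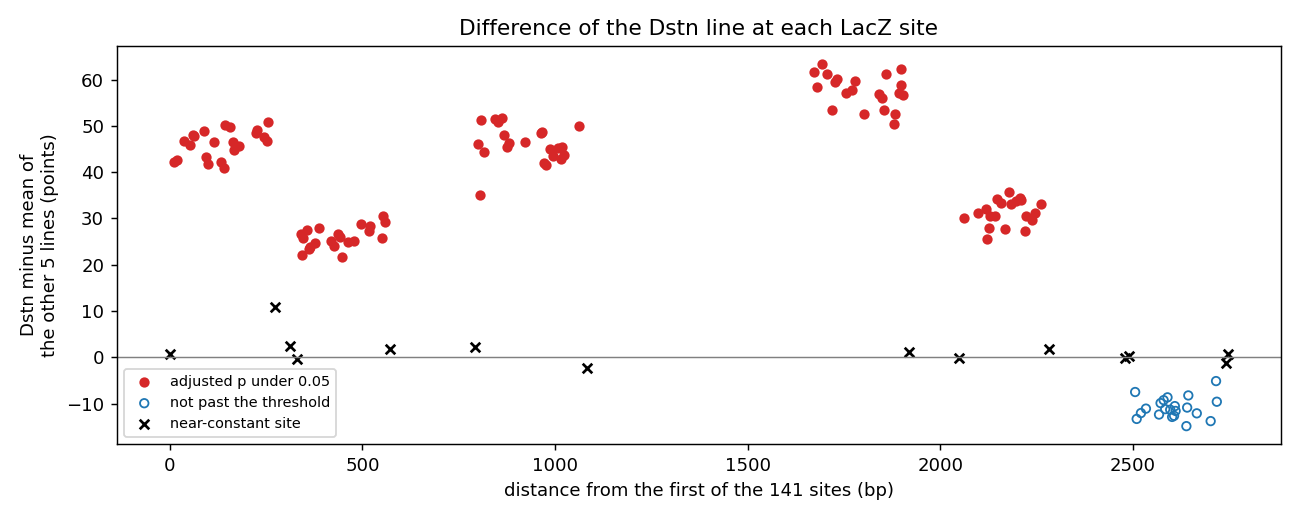
Mean level of the Dstn line minus the mean of the other 5 line means, in percentage points (vertical axis), at each of the 141 sites by distance in bp from the first site (horizontal axis). Filled circles are variable sites with an edgeR adjusted p under 0.05, open circles variable sites that did not pass and crosses near-constant sites. The 21 variable sites of the last stretch lie below 0, and the 106 of the earlier stretches lie between 21.8 and 63.4 points.

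No site passed for the other 5 lines against the mean of the rest by edgeR, which is 0% of 141 in each. These contrasts share all their libraries with each other and with that of Dstn, so their values are set side by side only. Unadjusted p-values under 0.05 numbered 10 for Arap, 7 for Lyplal1, 19 for Ninj1, 62 for Rab32 and 68 for Rgcc, and limma called 11 sites lower in Rab32 and 0 in the others.

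The 3 Rgcc libraries were low throughout. At variable sites of stretch 2, Rgcc heart had 7.97%, lung 4.49% and muscle 6.29%. Rgcc muscle stood apart in stretch 4, where its level was 24.5% against 9.14% in heart and 3.26% in lung. The difference from the mean of the other lines was below 0 at all 127 variable sites. Its median was -34.0 points and the smallest adjusted p was 0.0881 in edgeR. The Rgcc count depended on single libraries and on the model. With Arap liver left out, edgeR called 75 sites lower, and with Dstn lung left out 66. Without Arap it called 43, and without a tissue term 126.

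The 2 Rab32 libraries differed from each other. Rab32 liver had 9.03% at the start of stretch 1 and 3.56% in stretch 4. Rab32 spleen had 43.6% at the start of stretch 1, 34.9% at its end, and 25.8%, 14.4%, 9.97% and 13.4% in stretches 2 to 5, a level that became lower along most of the reporter. Rab32 lay below the mean of the other lines at all 127 variable sites, by a median of -21.8 points. The smallest adjusted p was 0.0851 in edgeR. The count became 20 lower sites when Dstn liver was left out and 33 when Dstn lung was.

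Ninj1 and Arap held intermediate levels that varied with tissue. Ninj1 lung had 66.8% in stretch 2 and 63.4% in stretch 3, and then 21.4% in stretch 4 and 22.8% in stretch 5. Ninj1 liver went the other way, with 29.2% in stretch 3, 52.0% in stretch 4 and 60.2% in stretch 5. The 6 Ninj1 libraries thus shared no single profile. In stretch 5, Ninj1 averaged 39.1% ± 17.1 (SD, n = 6). It lay above the mean of the other lines at all 21 variable sites, by a median of 16.4 points. All 19 of its sites with an unadjusted p under 0.05 were there. With the Arap line left out, edgeR called 17 sites higher in Ninj1.

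Arap liver was the most methylated Arap library in every stretch, with 84.7% at the start of stretch 1 and 77.4% in stretch 5, and Arap brain the least, with 17.2% and 13.1%. The 3 other Arap tissues lay between them, at 33.3% to 49.5% and 28.4% to 40.7%. In stretch 5, Arap lay above the mean of the other lines at all 21 variable sites, by a median of 15.5 points. Its 10 sites with an unadjusted p under 0.05 were there. Leaving out Arap liver lowered the Arap mean over the 141 sites from 36.9% to 28.9%.

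Lyplal1, with 2 libraries, ranked second by line means in stretches 1 to 4 and first in stretch 5. Lyplal1 kidney had 52.9% at the start of stretch 1 and 74.6% at its end, while Lyplal1 liver had 51.2% and 33.1%. The step within stretch 1 thus went up in kidney and down in liver. In stretch 5 they had 52.0% and 37.4%, a mean of 44.7% ± 10.3 (SD, n = 2). Lyplal1 exceeded the mean of the other lines at 126 of 127 variable sites, by a median of 16.4 points. The smallest adjusted p was 0.428 in edgeR.

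All line terms together were called at 109 of 141 sites (77.3%) in edgeR's quasi-likelihood test. These were 108 of the 127 variable sites and position 424. By stretch, they were 22 of 22 variable sites at the start of stretch 1, 8 of 21 at its end, 21 of 22 in stretch 2, 21 of 21 in stretch 3, 20 of 20 in stretch 4 and 16 of 21 in stretch 5. Of the 109 sites, 93 were among the 107 called for Dstn, which is 85.3% of the one list and 86.9% of the other; both come from the same fit. The 5 smallest p-values were at positions 2360, 1855, 2008, 2298 and 1843, each with an adjusted p of 0.00693 in edgeR. The line means at position 2360 spanned 41.6 points and those at position 1855 spanned 80.3. The count fell to 57 without Rab32 liver, 63 without Dstn spleen, 66 without Dstn heart, 66 without Rgcc lung and 68 without Rgcc heart, and it rose to 128 without Arap liver.

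Between tissues, edgeR called 0 of 141 sites (0%), with 0 unadjusted p-values under 0.05, and limma also called 0. The smallest unadjusted p-values were at position 282 (0.156), position 162 (0.251) and position 291 (0.311) in the start of stretch 1. At position 282 the kidney libraries had 61.2% in Arap, 91.9% in Dstn, 52.8% in Lyplal1 and 73.9% in Ninj1, and the brain libraries had 22.5% in Arap, 90.1% in Dstn and 29.4% in Ninj1. The level of a library minus its line mean, over the 141 sites, averaged 6.74 ± 7.51 points in kidney (SD, n = 4) and -6.70 ± 14.9 in brain (SD, n = 3). Spleen was above its line mean in all 3 lines sampled, with 7.37 ± 4.58 points (SD, n = 3), and the liver libraries ran from -11.8 to 31.7 points. The same tissue thus had high and low libraries depending on the line: the liver level in stretch 3 was 92.8% in Dstn, 61.0% in Arap, 35.9% in Lyplal1, 29.2% in Ninj1 and 4.07% in Rab32.

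The profile within a stretch recurred across lines at certain sites. Of the 127 variable sites, 13 lay below the mean of their stretch (or of the start or end of stretch 1) in all 24 libraries and 12 lay above it in all 24. Position 956, in stretch 2, was the furthest above, by 23.5 points on average. Its level ran from 21.2% in Rgcc lung through a median of 68.5% to 99.1% in Dstn heart. Position 958, 2 bp away, was far lower in most libraries, with 11.4% against 77.0% in Arap kidney and 18.4% against 83.2% in Ninj1 liver. In Dstn brain the levels were 96.7% and 96.2%, so this contrast was lacking there. It was also small in the other Dstn libraries near full methylation.

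Position 511, in the end of stretch 1, was the furthest below, by -14.4 points, with 22.8% against 94.9% at position 506 in Arap liver. In Lyplal1 kidney it was 71.3% against 75.0%. Positions 2360 and 2866, which had 2 of the 3 lowest means over line means (18.4% and 13.2%), lay below the mean of stretches 4 and 5 in all 24 libraries. Position 2656, in stretch 5, had the remaining low mean, 16.9%. At position 2866 the Dstn level was 8.91% ± 3.20 (SD, n = 6) and the Lyplal1 libraries had 42.4% and 27.1%. Lyplal1 was thus the highest line at the site that was lowest on average. Positions 722, 424 and 2433, all near-constant, had the 3 highest means, at 77.7%, 77.2% and 71.4%.

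The deviation of each site from its stretch mean in one library was set against the mean deviation in the other lines, over the 127 variable sites. Pearson's r was 0.610 in Dstn kidney, the lowest, to 0.933 in Ninj1 muscle, with a median of 0.854 and 18 of 24 libraries at 0.8 or more. The sites of a library share its depth, and all libraries share the base composition of the reporter, so these values are a description. Across the 24 libraries, the levels of stretches 2 and 3 had an r of 0.935 and those of stretches 3 and 5 an r of 0.140. With each line's mean removed, the r of stretches 4 and 5 was 0.817 and that of stretches 3 and 5 was 0.380. The libraries of a line share a genotype and are not independent.

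**Figure D5:**
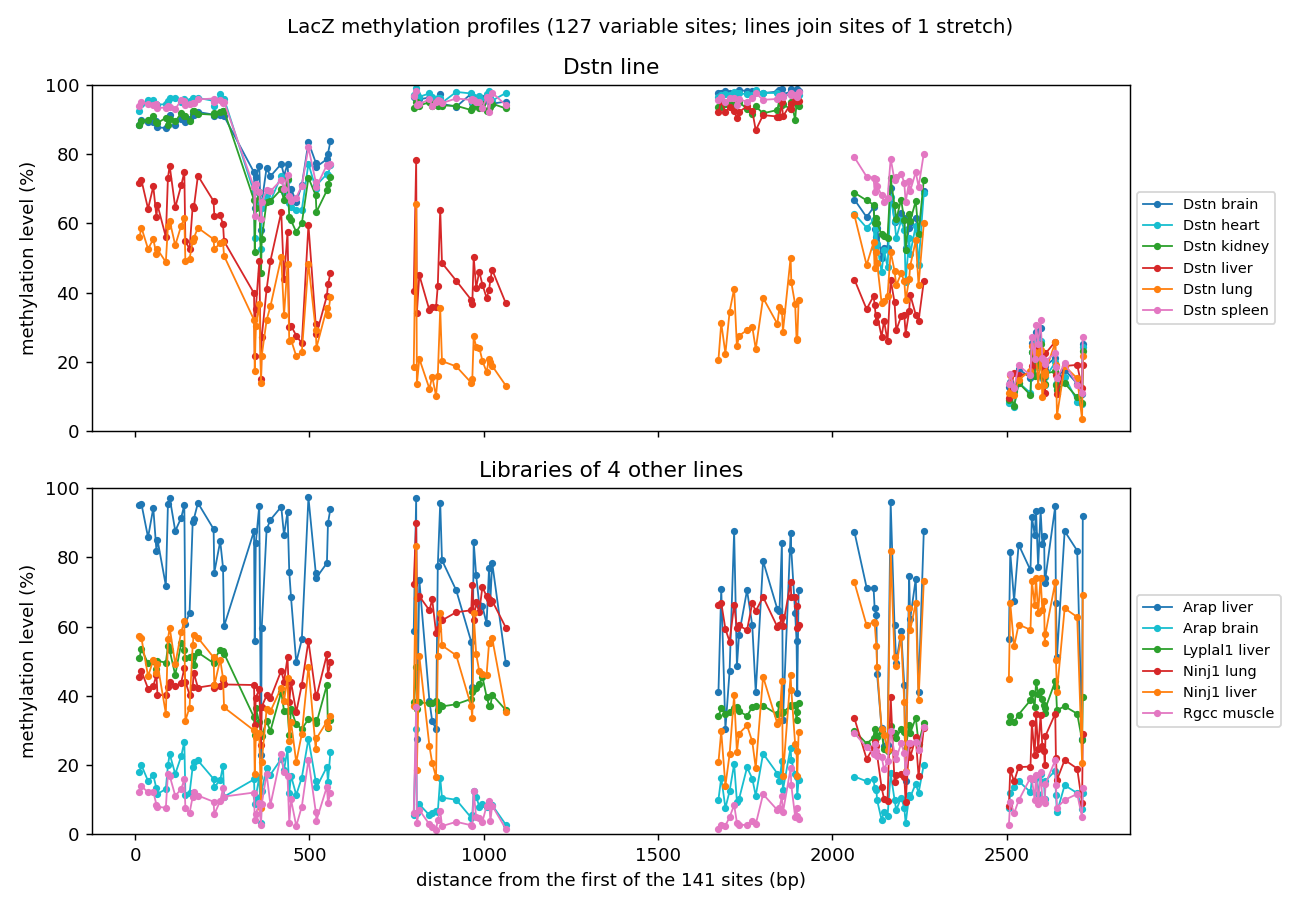
Methylation level in percent (vertical axis) of the 127 variable sites by distance in bp from the first of the 141 sites (horizontal axis), with sites of 1 stretch joined. The upper panel shows the 6 Dstn libraries, with stretch 3 at 92.8% to 98.1% on average except in lung at 32.1%, and the lower panel 6 libraries of 4 other lines, chosen after seeing the data, in which Arap liver swings widely between neighbouring sites and Lyplal1 liver is nearly flat within a stretch.

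Neighbouring variable sites differed by a median of 1.44 points in Rgcc lung and of 13.7 in Arap liver, over 122 pairs within stretches. Dstn brain and Dstn spleen, among the most methylated libraries, had 1.55 and 1.47 points, and Lyplal1 liver, at an intermediate level, had 2.32. Ninj1 kidney and Ninj1 spleen, also intermediate, had 10.3 and 10.5. Libraries of similar level therefore differed in how smooth they were along the reporter.

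Of the 184 LacZ positions outside the set, 17 had 10 reads in all but one library. A block of 22 positions from 1437 to 1633, between stretches 2 and 3, was lost to low coverage, with at most 6 reads at any of them in Lyplal1 kidney. Position 156, between the first 2 sites of stretch 1, had 8 reads in Lyplal1 liver and a level of 0% to 2.63% in the other 23 libraries. It had 736 reads in total over all libraries, while positions 150 and 162 had at least 2929 and 2923 reads in each, so its level covers few of the reads. Just inside the threshold, the member with the lowest coverage had 1305 reads, so no member lay near it.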

How the data were processed

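Genomic DNA of frozen tissues was bisulfite treated, amplified and sequenced, per the labels' protocols. Bowtie2, Bismark and the mm9 build are listed in the submitters' processing notes; their versions are not given in the sources used here, and mm9 does not apply to positions within LacZ. The deposited files hold, for each CpG site, a percent of methylated calls and counts of methylated and unmethylated calls. In the deposited files, percent and counts matched to within 5.68e-14 points, and no normalization or removal of duplicate reads is stated.

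Libraries were grouped by the line and tissue in their titles. A level is the unweighted mean percent over sites. Site counts were fitted with edgeR 4.0.16 (quasi-likelihood, line and tissue terms) in R 4.3.3, with Benjamini-Hochberg adjustment over the 141 sites and a threshold of 0.05. The model was also run on simulated counts in which sites varied independently and only Dstn was shifted. The sites of a stretch moved together in the real data, so that run cannot vouch for the test here. The alternatives were limma 3.58.1 on log2 odds (offset 0.5), coverage minimums of 1 and 100 reads, no tissue or no line term, a difference of at least 10 points, other site sets and ways to combine sites, and each library left out. Python 3.11.15, numpy 2.4.6, pandas 2.3.3 and scipy 1.17.1 were used for the rest.

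Sites named by rule were the 5 and 3 with the smallest p between lines and between tissues, the called site with the largest difference of a line, and the 3 with the smallest and largest SD and the highest and lowest mean. Other named sites were chosen after their values were seen, as was the division of stretch 1 after position 424. The members, the lists and the near-constant threshold were chosen with earlier results of these data known. No 2 files were identical.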

Additional observations from a re-analysis of the deposited data

Results flagged for a closer look

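Dstn lung had a mean level of 32.1% at the variable sites of stretch 3, far below the other 5 Dstn libraries, which had 92.8% to 98.1%. Its gap to the nearest of them was 0.921 of the range of the 6, above Dixon's critical value of 0.625. In all, 24 groups of 4 or more libraries were examined in this way and 1 stood out, and chance alone marks about 1 group in 20. Median coverage of stretch 3 was 2114.5 reads in Dstn lung, against 19923 in its stretch 1. In Dstn kidney, with 93.8% in stretch 3, it was 1571 reads.

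The level of the first part of the reporter (up to position 1065) minus that of the last part (from position 1981) was below 0 in every Rgcc library over the 141 sites and above 0 in every library of Dstn, Lyplal1 and Rab32. The Rgcc values were -0.0413 points in lung, -0.536 in heart and -5.58 in muscle, so those of lung and heart were close to 0. At the variable sites alone Rgcc lung was above 0, at 0.730, and with pooled reads Rgcc heart and lung were, at 0.429 and 0.553. Dstn minus Rgcc was 25.5 points (30.9 ± 2.98 in Dstn itself without liver and lung, SD, n = 4), Lyplal1 minus Rgcc 9.60 and Rab32 minus Rgcc 14.5. The Rab32 value rested on 2 unlike libraries, liver with 3.14 points and spleen with 21.7, and the difference was 5.19 without Rab32 spleen and 23.7 without Rab32 liver. These differences were not tested.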

How the results depend on the processing

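The alternatives without Arap and without both Dstn liver and Dstn lung were chosen after seeing the data. No result changed its direction. The Dstn count and the count of 0 between tissues stayed within 1.5 times of their value under every alternative run. Without a tissue term, Rgcc had 126 lower sites; without near-constant sites 61; without Arap 43; and without Dstn liver and lung 73. Rab32 had 11 lower sites by limma and 76 without Dstn liver and lung. Ninj1 had 17 higher sites without Arap. The first part of the reporter minus the last was 23.4 points in Dstn and 47.4 with the first and last stretch, and in Lyplal1 7.55 points, 9.29 with pooled reads and 8.97 with the first and last stretch. The Rgcc level was 12.8%, 8.58% without near-constant sites and 8.43% as a median over sites.

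Leaving out each library gave 57 to 128 sites between lines (57 without Rab32 liver, 63 without Dstn spleen, 66 without Dstn heart or Rgcc lung, 68 without Rgcc heart and 72 without Dstn kidney), 88 to 108 for Dstn, 0 to 33 for Rab32 (20 without Dstn liver, 33 without Dstn lung), 0 to 75 for Rgcc (66 without Dstn lung, 75 without Arap liver) and 0 to 1 for Lyplal1 (1 without Arap liver). For tissues, Arap and Ninj1 the count stayed at 0. Where this left Lyplal1 or Rab32 with 1 library, that library is assumed to vary like those of the other lines. The cause of these changes was not tested. No paired analysis was possible because the labels give no replicate numbers; the tissue term compares lines within tissues. Every member had 1305 reads or more in every library, and the fit had 12 residual degrees of freedom.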

Other observations

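The 22 positions from 1437 to 1633, between stretches 2 and 3, were too thinly read in Lyplal1 kidney to be among the 141 sites. At 20 of them, leaving out 2 near-constant ones, Dstn brain had 69.0%, spleen 57.0%, heart 48.2%, kidney 47.9%, liver 22.6% and lung 17.5%, a mean of 43.7% ± 19.9 (SD, n = 6), or 55.5% ± 9.91 (SD, n = 4) without liver and lung. The 5 Arap libraries averaged 26.0% ± 16.5 (SD, n = 5) and the 6 Ninj1 libraries 26.2% ± 11.1 (SD, n = 6). Rab32 averaged 14.6% ± 8.85 (SD, n = 2), and Lyplal1 liver, the one Lyplal1 library read there, had 20.6%. Rgcc heart had 14.1% and Rgcc lung 8.59%, and Rgcc muscle had 12.3% at the 14 of these positions with at least 10 reads. Dstn liver and lung were again the lowest of the Dstn libraries, and Dstn kidney lay close to Ninj1 kidney, at 44.2%. Median coverage was 12369.5 to 29414.5 reads in the Arap libraries and 36 to 160.5 in the Dstn libraries. In the other lines it ran from 16.5 in Rgcc muscle to 881.5 in Rab32 liver, with 21.5 in Lyplal1 liver and 29 in Ninj1 kidney. Outside Arap, the values here thus rest on far fewer reads than those of the 141 sites.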
